A study of Mus musculus with 4 samples.

Results

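The cells described here are the secretory luminal and the basal epithelial cells of mouse mammary gland, compared between mice with the Y541S form of the estrogen receptor gene Esr1 and wild-type mice, both given vehicle. Both kinds of cell were chosen for having little RNA of the receptor and its close partners, so the comparison asks how cells that carry little receptor RNA differed between the genotypes. Cell barcodes were kept with at least 1000 UMIs (unique molecular identifiers, each standing for 1 captured RNA molecule), at least 500 genes and at most 15% mitochondrial UMIs. A secretory cell held at least 10 UMIs of Wfdc18, Csn3, Elf5 and Kit together per 10000, and under 10 of the contractile genes Acta2, Myh11, Mylk and Tagln. A basal cell held at least 20 of those contractile genes and at least 10 of Krt5 and Krt14. Both held under 10 of Esr1, Prlr, Areg and Foxa1 together. The rule took 9622 of the 14299 kept barcodes of the vehicle libraries. Of these, 668 secretory and 4604 basal cells came from the wild-type library, and 1527 secretory and 2823 basal cells from the Y541S library.

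All mice, controls included, were 6 months old and carried pellets of estradiol (E2) and progesterone (P4). Daily for 4 days they received either the vehicle, MCT, or giredestrant at 30 mg/kg by mouth, an antagonist and degrader of the estrogen receptor. EpCAM-positive cells were sorted from the glands, and pools over 85% viable went into 10x Genomics v3.1 libraries of transcript 3' ends, 1 library for each of wild-type vehicle, Y541S vehicle, wild-type giredestrant and Y541S giredestrant. The labels give neither the number of animals behind a library nor the strain, name the source mature luminal cells although basal cells were the most numerous kind in both vehicle libraries, and are the only evidence of genotype, because counts carry no sequence.

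In the mammary epithelium, estrogen acts first on hormone-sensing luminal cells, which hold the estrogen receptor. These cells signal to their neighbours through secreted factors such as amphiregulin, RANK ligand and WNT4. Secretory luminal cells make milk proteins and include the progenitors that divide, and basal cells contract to eject milk and lay down the basement membrane. The mutation replaces a tyrosine of the hormone-binding domain by serine, and replacements of the matching human tyrosine make the receptor active without hormone.

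With 1 library per group there was no replicate error, so no test was made and no p-value is given. For each class and library the UMIs of all cells were added up, and a gene's level is its sum as counts per 1000000 (CPM) of the total. The fold between genotypes is given as a relative log2 ratio, which is the log2 of the CPM ratio, Y541S over wild type, minus that of the median gene of the class (0.0016 in secretory and 0.0215 in basal cells). A gene was measured when both vehicle sums together held at least 100 of its UMIs, and called higher or lower when it lay at least 1.5-fold from the median gene. Values in brackets after a ratio are exact 95% intervals, which cover counting error only and not the difference between animals or libraries. Levels in all libraries are given in the order wild-type vehicle, Y541S vehicle, wild-type giredestrant and Y541S giredestrant.

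The Y541S vehicle library was the deeper of the 2, with median UMIs of 15290 over all kept barcodes against 10868 in wild type. Median UMIs were 12831 in wild-type and 14988 in Y541S secretory cells, and 10422 and 12187 in basal cells. The sums held 10097259 and 25635980 UMIs for secretory cells and 54692928 and 36660000 for basal cells. Secretory cells were 9.43% (8.76 to 10.1) of kept barcodes in the wild-type and 21.2% (20.2 to 22.1) in the Y541S library, and basal cells were 65.0% (63.9 to 66.1) and 39.1% (38 to 40.3). The EpCAM sort can set these shares, and its gate is not described. Cells near the edge of the rule were counted: 10 and 3 secretory cells had 10 to 15 UMIs of the secretory genes per 10000, and 11 and 6 cells that met the other conditions had 6.67 to 10. For basal cells, 164 and 71 cells had 20 to 30 UMIs of the contractile genes, and 102 and 43 had 13.3 to 20. Between 10 and 29 cell barcodes were shared by any 2 libraries.

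Marker genes that the rule did not use were most abundant in the class they mark. The secretory markers summed to 13041 CPM in wild-type and 12342 CPM in Y541S secretory cells, against 3329 and 2695 in basal cells and 9861 and 10257 in receptor-positive cells, so these markers set secretory cells apart from basal cells more than from other luminal cells. The basal markers summed to 8114 and 9023 CPM in basal cells, against 1185 and 948 in secretory cells. Of 6 basal markers measured in secretory cells, Trp63, Krt17 and Krt15 were at least 1.5-fold lower in Y541S and none was higher. Of 7 basal and stress keratin genes, Krt6a, Krt17 and Krt15 were lower and none was higher, where 6.64% of all secretory genes were lower. The rule set no limit on keratins in secretory cells, and the part of basal RNA in the secretory differences was not tested. Markers of hormone-sensing cells outside the rule summed to 237 and 149 CPM in secretory cells and 105 and 93.7 CPM in basal cells. Fibroblast markers summed to 2.18 and 5.58 CPM in secretory cells and 127 and 256 CPM in basal cells, where the proteoglycan gene Dcn made up most of both sums. Macrophage and dendritic markers summed to 22.3 and 11.6 CPM in secretory and 84.9 and 56.7 CPM in basal cells. Pericyte markers summed to 98.5 and 67.9 CPM in secretory cells, nearly all of it Notch3, with 5 and 2 of the 8 markers at 0, and to 19.1 and 11.3 CPM in basal cells.

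A set of transcripts with near-identical copies elsewhere in the genome moved between libraries in the same way in both classes. The mitochondrial gene mt-Co3 stood at 32.0, 70.5, 125 and 26.3 CPM in secretory cells and at 37.0, 99.4, 169 and 32.1 CPM in basal cells. Rnaset2a, chosen after its values were seen, stood at 12.1, 25.6, 42.2 and 15.4 CPM in secretory cells and at 7.75, 16.9, 25.1 and 8.82 CPM in basal cells. Both were high in the Y541S vehicle and wild-type giredestrant libraries and low in the other 2, and so were mt-Atp6, mt-Co2 and Rnaset2b, and AL607105.1, for which no copy was looked for. These levels are uncertain, since reads can be divided between copies, and what sets the pattern across libraries was not tested. The labels do not give the strain, and nothing in the counts checks the genotype of a library. A difference in strain or an exchange of labels between libraries was not tested either, so the direction of every ratio given here rests on the labels.

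Secretory cells of the Y541S library had more RNA of the mitotic genes, of Hp (haptoglobin, the plasma protein that binds free hemoglobin), of the muscarinic acetylcholine receptor gene Chrm3 and of the fatty acid desaturase gene Scd1. They had less RNA of the large membrane protein gene Csmd1, of the scaffold gene Dlg2, of the sulfotransferase gene Chst9 and of the immediate early genes Fos and Fosb. Of 11445 genes measured, 400 (3.49%) were at least 1.5-fold higher and 760 (6.64%) at least 1.5-fold lower in Y541S, 10.1% in all. Among those at 20 or more CPM in the higher library, 134 were higher and 259 lower. In 12 of the former and 45 of the latter the level was under 25% of that in the class of the same library with the most, among secretory, basal, receptor-positive and non-epithelial cells.

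**Figure D1:**
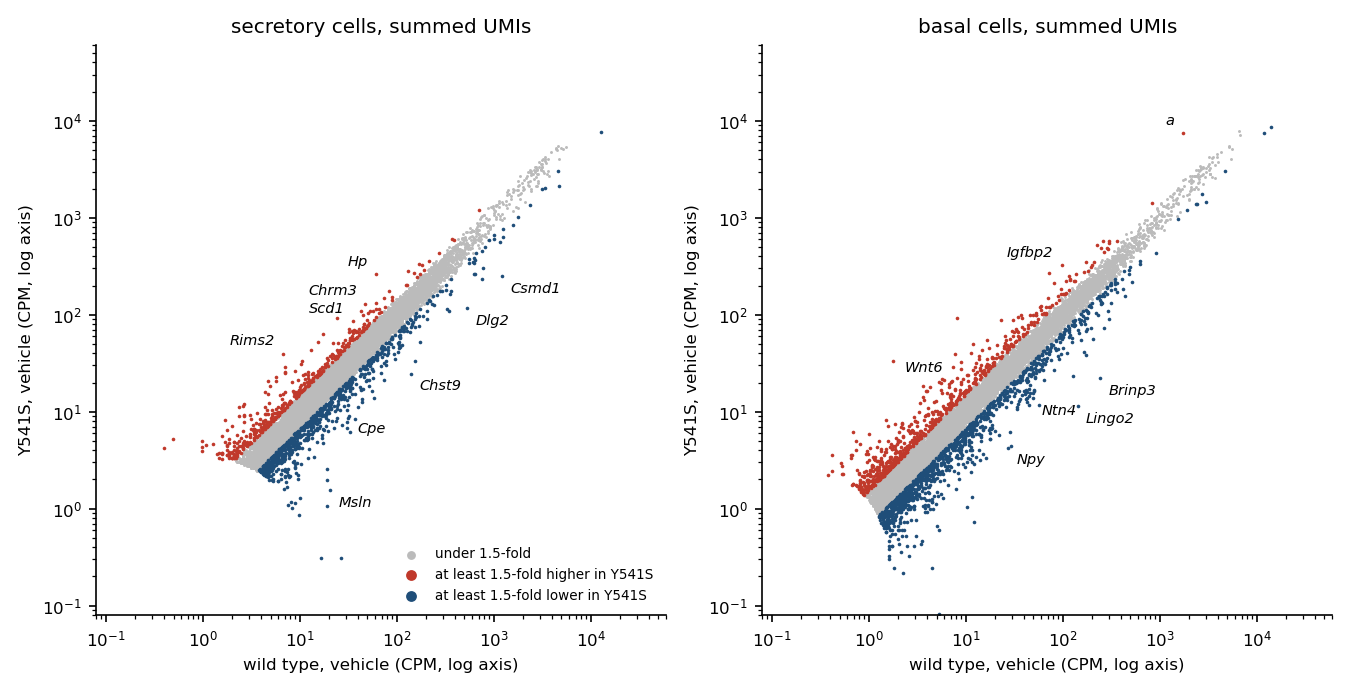
Summed level of each measured gene (CPM, log axes) in the wild-type vehicle library (horizontal axis) and the Y541S vehicle library (vertical axis), for secretory cells and basal cells, with each point standing for 1 gene. Most genes lie close to the diagonal: 10.1% of secretory and 12.7% of basal genes were 1.5-fold or more away from the median gene.

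The split of the calls depended on the scaling. With TMM factors, which moved the median gene by 0.07 on the log2 scale, 547 secretory genes were higher and 613 lower, so the higher genes were 47.2% of the calls in place of 34.5%. Sums could also rest on very few cells. For 11 of the 760 lower genes, a single wild-type cell held at least as many UMIs as all other wild-type secretory cells together. For 3 of the 400 higher genes, a single Y541S cell held at least as many as all other Y541S secretory cells.

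Csmd1, whose protein carries CUB and sushi domains and regulates complement, lies on chromosome 8 from 15892537 to 17535586 (GRCm38, minus strand). Its level in secretory cells was 1212, 249, 714 and 148 CPM, so it was low in both Y541S libraries. The relative log2 ratio was -2.28 [-2.33 to -2.24] with vehicle and -2.18 with giredestrant. After thinning every cell to 3000 UMIs, 61.8% of wild-type and 17.4% of Y541S secretory cells held a UMI of Csmd1, against 0.188% and 0.207% of receptor-positive cells. Without thinning the shares in secretory cells were 72.2% and 25.5%.

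Dlg2, which encodes a scaffold of membrane-bound receptors, lies on chromosome 7 from 90476672 to 92449247. It stood at 532, 117, 154 and 4.83 CPM, with a ratio of -2.19 [-2.25 to -2.12] with vehicle and -4.90 with giredestrant. Its symbol belongs to 2 identifiers in the files, and these values are those of ENSMUSG00000052572. Chst9, a sulfotransferase that acts on N-acetylgalactosamine, stood at 139, 24.7, 107 and 18.4 CPM, with a ratio of -2.50 [-2.64 to -2.36]. Mdga2, a synaptic adhesion protein, stood at 33.1, 6.20, 38.2 and 8.80 CPM. Each of the 3 was lower in Y541S than in wild type under both treatments.

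Other genes were lower in Y541S with vehicle and higher with giredestrant. Pdk4, the kinase that switches off pyruvate dehydrogenase, stood at 156, 33.3, 27.1 and 232 CPM, with ratios of -2.23 and 3.20. The lipoxygenase gene Alox12e stood at 30.4, 6.75, 5.98 and 35.9 CPM. Msln (mesothelin) stood at 20.5, 1.56, 1.04 and 28.2 CPM, and in the wild-type vehicle library 2 cells held at least as many of its UMIs as all the others. In Pdk4, Alox12e and Msln the wild-type vehicle and Y541S giredestrant libraries were the high ones. The actin crosslinker gene Flnc stood at 43.5, 12.5, 8.42 and 17.2 CPM, so the wild-type vehicle library alone was high.

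The other genes of the 12 furthest below the median gene were Il1rapl1, Dock3, Cpe and Fgf1. Il1rapl1, a receptor accessory protein of synapses, stood at 37.4, 8.43, 7.93 and 1.55 CPM. Dock3, an activator of the GTPase Rac, stood at 27.2, 7.33, 11.1 and 8.71 CPM. Cpe, the carboxypeptidase that trims prohormones, stood at 32.3, 8.97, 12.6 and 5.35 CPM, and the growth factor gene Fgf1 at 73.2, 21.1, 41.7 and 38.1 CPM. In all 4 the wild-type vehicle library was the highest of the 4 libraries.

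Among the genes furthest above the median gene, Hp lies on chromosome 8 from 109575128 to 109579172. It stood at 61.9, 261, 2.71 and 42.9 CPM in secretory cells with a ratio of 2.08 [1.96 to 2.20] with vehicle and 4.08 with giredestrant, and was higher in Y541S under both treatments. Receptor-positive cells of the vehicle libraries held 1757 CPM in wild type and 959 CPM in Y541S, so the order of the genotypes was the opposite there. These cells were 7.61% of kept barcodes in the wild-type and 27.3% in the Y541S vehicle library. The part of their RNA in the secretory level of Hp was not tested. Rims2, which organises vesicle release, stood at 6.73, 39.6, 0.765 and 13.5 CPM, with ratios of 2.55 [2.20 to 2.93] and 4.23.

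Chrm3 (chromosome 13, 9875486 to 10360847) stood at 47.3, 130, 73.7 and 41.3 CPM, with a ratio of 1.46 [1.32 to 1.60] with vehicle and -0.74 with giredestrant. After thinning, 7.0% of wild-type and 24.1% of Y541S secretory cells held a UMI of it, against 0.376% and 0.207% of receptor-positive cells, and without thinning 17.1% and 47.3% of secretory cells did. The Y541S vehicle library held the most of it among the 4.

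Scd1 (chromosome 19, 44394455 to 44407879), which introduces the double bond of oleic acid, stood at 35.4, 85.6, 104 and 155 CPM, with a ratio of 1.27 [1.11 to 1.44]. P3h2, a prolyl hydroxylase of collagen, stood at 21.9, 51.0, 29.7 and 56.9 CPM. Both were higher in Y541S than in wild type with vehicle and with giredestrant. The other genes of the 12 were Ube2c, the redox enzyme gene Enox1, AL607105.1, Nlrp4e, the neutrophil chemokine gene Cxcl2, the lipopolysaccharide-binding protein gene Lbp and Rnaset2b, with relative log2 ratios from 1.14 to 1.88. Lbp stood at 10.2, 31.3, 26.4 and 30.6 CPM, so that only the wild-type vehicle library was low.

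**Figure D2:**
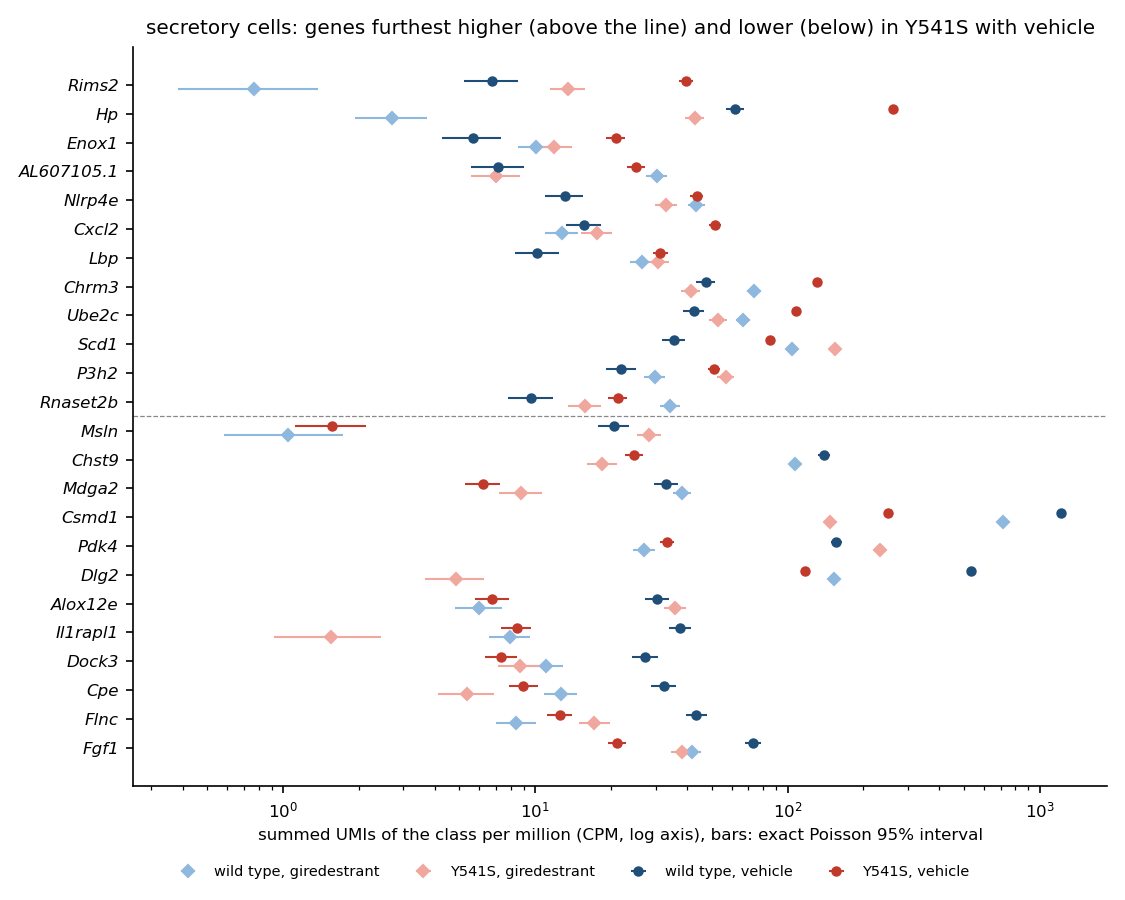
Level (CPM, log axis) of the 12 genes furthest above and the 12 furthest below the median gene in secretory cells, in each of the 4 libraries, with lines for exact 95% Poisson intervals. Csmd1, Dlg2, Chst9 and Mdga2 were lower in Y541S than in wild type under both treatments. Pdk4, Alox12e and Msln were high in the wild-type vehicle and Y541S giredestrant libraries, and Flnc was highest in the wild-type vehicle library.

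Some genes passed the fold and the level but were more abundant in another class of the same library. Of those higher in Y541S, the furthest were Cxcl10 (10.7 and 23.7 CPM with vehicle), Piezo2 (36.0 and 69.1), Cxcl1 (57.3 and 109) and Fbxl7 (29.3 and 55.5). Piezo2 was most abundant in receptor-positive cells and the other 3 in non-epithelial cells. Of those lower, the furthest were Saa1 (26.4 and 0.312 CPM), Plac8 (58.7 and 14.0), Ly6a (30.6 and 7.80) and Thsd7a (40.2 and 11.1). For Saa1 and Ly6a, a single wild-type cell held at least as many UMIs as all other wild-type secretory cells.

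Gene lists separated by function showed where the secretory differences fell. Of 12 NF-kB targets and chemokines measured, 5 were higher (Cxcl2, Cxcl10, Cxcl1, Icam1 and Birc3) while Cxcl14 was lower, and the list median was 0.35. Among all secretory genes measured with vehicle, 3.49% were higher and 6.64% lower. The adhesion receptor gene Icam1 stood at 46.5, 80.7, 90.0 and 112 CPM, and Birc3, an inhibitor of apoptosis, at 75.9, 120, 165 and 123 CPM. Of 12 interferon response genes 6 were higher, 1 was lower and the median was 0.58, but in 10 of them the secretory level was under 25% of that in another class of the same library. With giredestrant none of 13 interferon response genes was higher and 8 were lower (median -0.90), and of 12 NF-kB targets and chemokines 2 were higher and 3 lower (median -0.38), where 13.1% of all secretory genes measured were higher and 15.7% lower. Bst2 (tetherin), an interferon-induced antiviral protein, stood at 66.0, 115, 110 and 85.1 CPM.

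Immediate early genes are switched on within minutes of a stimulus, tissue handling included. Of 17 immediate early and heat shock genes, 5 were lower (Fosb, Fos, Atf3, Jun and Egr1), none higher, 4 lay above the median gene, and the list median was -0.44. Fos stood at 1568, 839, 1768 and 606 CPM and Fosb at 1253, 639, 1360 and 492 CPM, so both Y541S libraries were lower than both wild-type libraries. With giredestrant the same list had 7 of 17 genes lower, 1 higher and a median of -0.50. Over all secretory genes measured, 15.7% were lower and 13.1% higher with giredestrant, against 6.64% and 3.49% with vehicle.

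Of 9 progesterone and glucocorticoid response genes measured, 3 were lower, none was higher and none lay above the median gene, with a list median of -0.45. They were Wnt4, the paracrine WNT ligand of hormone-sensing cells (30.8 and 13.3 CPM with vehicle), the transcription factor gene Zbtb16 (23.4, 10.3, 33.7 and 10.4 CPM) and the glucocorticoid target Tsc22d3 (19.4, 9.67, 19.6 and 9.23 CPM). All 3 were under 25% of the level in another class of their library. The summed hormone-sensing markers stood lower in Y541S secretory cells, at 237 and 149 CPM, but also in receptor-positive cells, at 4678 and 2701 CPM. The secretory sum was thus 5.07% of the receptor-positive sum in wild type and 5.52% in Y541S. Of 6 such markers measured in secretory cells, Prom1 and Cxcl15 were higher and Cited1 and Wnt4 lower. The part of RNA from hormone-sensing cells in these differences was not tested. Of 15 estrogen response genes, Fhl2 and Wisp2 were lower and none was higher, with a median of -0.13. With giredestrant 6 of 14 estrogen response genes were higher and 1 lower (median 0.39). Of 10 progesterone and glucocorticoid response genes 4 were higher and 3 lower (median 0.23). Over all secretory genes measured, 13.1% were higher and 15.7% lower with giredestrant, and 3.49% and 6.64% with vehicle.

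The milk protein list moved both ways. Of 14 members, Cel, Lalba, Csn1s2b and Csn1s1 were higher and Olah, Ltf, Csn2, Btn1a1, Mfge8 and Cidea lower, with a median of 0.13. Ltf (lactoferrin, an iron-binding milk protein) stood at 349, 111, 75.1 and 37.8 CPM, and Mfge8, the milk fat globule protein that bridges to dying cells, at 1264, 761, 1191 and 889 CPM. Csn1s1 (alpha-casein) stood at 58.0, 87.5, 4.59 and 3633 CPM, so the Y541S giredestrant library lay far above the other 3. With giredestrant 10 of 14 members were higher and 1 lower in Y541S, with a median of 1.77. Over all secretory genes measured, 13.1% were higher and 15.7% lower with giredestrant, against 3.49% and 6.64% with vehicle.

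Among luminal progenitor genes, Fcgbp, a mucin-like secreted protein, was lower (763, 233, 696 and 620 CPM, ratio -1.72 [-1.77 to -1.67]), and Cyp24a1, the enzyme that breaks down vitamin D, was higher (2.67, 9.01, 3.55 and 13.6 CPM). Of the receptor and ligand lists, RANK, IGF and paracrine response had 1 of 13 higher and 2 lower: Irs1, the adaptor of the insulin and IGF receptors, stood at 56.6, 26.2, 25.5 and 31.0 CPM, and Tnfrsf11a (RANK itself) at 23.4, 14.5, 23.4 and 16.1 CPM. Of 16 EGF family and ERK feedback genes 3 were higher, among them Phlda1 at 708, 1207, 789 and 1198 CPM, and 2 were lower. Among all secretory genes measured with vehicle, 3.49% were higher and 6.64% lower. No member of the prolactin and STAT5 (11 measured), MHC class I (11), hypoxia and glycolysis (12) or p53 target (12) lists passed 1.5-fold in secretory cells.

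The mitotic genes stood out in both classes. All 12 G2 and M phase genes lay above the median gene in secretory cells, 7 of them at least 1.5-fold, with a median of 0.63, and 11 of 12 did so in basal cells, 7 of them at least 1.5-fold, also with a median of 0.63. Ccnb1 (cyclin B1, which drives entry into mitosis), Ube2c (the ubiquitin-conjugating enzyme of the anaphase-promoting complex), Cdc20 (the activator of that complex) and Tpx2 (a spindle assembly factor) were among those called in each class. Of 15 S phase genes, all lay above the median gene in secretory cells, but only Rrm2 and Mcm5 passed 1.5-fold (median 0.43), and in basal cells 10 of 14 lay above it and only Rrm2 passed (median 0.15). With giredestrant the secretory lists lay the other way: 1 of 12 G2 and M phase genes was higher and 3 were lower (median -0.25), and of 15 S phase genes none was higher and 7 were lower (median -0.47), where 13.1% of all secretory genes measured were higher and 15.7% lower. In basal cells 8 of the 12 G2 and M phase genes were higher with giredestrant and none was lower (median 0.96). Over all basal genes measured the shares were 13.0% and 12.8%. With vehicle they were 4.67% and 8.02% in basal and 3.49% and 6.64% in secretory cells. Both classes come from the same 2 libraries and are no independent repeats of each other.

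The promoters of Ccnb1, Ube2c and Cdc20 are shown because these G2 and M phase genes were at least 1.5-fold higher in both classes. Tpx2 was so too, but the promoter set used here held no entry for it. They are RefSeq sequences of GRCm38.p6, 120 bases ending at the base before the transcription start, read 5′ to 3′ on the gene's strand. Capitals mark the CCAAT box, bound by NF-Y (CCAAT, or ATTGG on the other strand), and the cell cycle homology region (TTTGAA, or TTCAAA on the other strand). The windows lie at chr13:100786487-100786606 (minus strand), chr2:164769809-164769928 (plus) and chr4:118437344-118437463 (minus).
Ccnb1: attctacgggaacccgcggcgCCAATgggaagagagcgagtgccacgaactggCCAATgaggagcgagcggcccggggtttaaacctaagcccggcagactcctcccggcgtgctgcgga
Ube2c: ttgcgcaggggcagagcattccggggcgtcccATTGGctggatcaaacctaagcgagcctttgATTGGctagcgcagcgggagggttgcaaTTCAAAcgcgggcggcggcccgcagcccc
Cdc20: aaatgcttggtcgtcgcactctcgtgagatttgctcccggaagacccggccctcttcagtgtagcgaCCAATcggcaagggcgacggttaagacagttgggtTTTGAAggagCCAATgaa

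A CCAAT box on either strand stood in this window in 9 of the 11 G2 and M phase genes found in the table, against 21.3% of all 32851 promoters, and the TTTGAA motif in 6 of 11, against 7.12%. Each of the 3 promoters shown holds 2 CCAAT boxes, and those of Ube2c and Cdc20 hold 1 TTTGAA motif. A gene of the list counted when any of its promoters held the motif, while 21.3% and 7.12% are shares of single promoters. A match describes the letters only.

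Ube2c stood at 42.5, 108, 66.6 and 53.1 CPM in secretory cells, a ratio of 1.35 [1.20 to 1.5] with vehicle and -0.23 with giredestrant. In basal cells it stood at 18.6, 36.9, 14.8 and 26.3 CPM, with ratios of 0.97 [0.85 to 1.09] and 0.92. Cdc20 stood at 26.1, 42.1, 33.3 and 19.1 CPM in secretory and 7.72, 17.2, 10.3 and 12.4 CPM in basal cells. In secretory cells the Y541S vehicle library was the highest of the 4 for both genes, and with giredestrant the order of the genotypes was the opposite.

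A cell was counted as mitotic when, after thinning to 3000 UMIs, it held 3 or more UMIs of 10 mitotic genes. In secretory cells, 70 of 629 wild-type cells (11.1%, 8.78 to 13.9) and 218 of 1500 Y541S cells (14.5%, 12.8 to 16.4) were mitotic with vehicle. With giredestrant the shares were 8.43% (6.30 to 11.0) and 13.8% (11.8 to 16.0). In basal cells they were 1.96% (1.57 to 2.40, 89 of 4550) and 3.54% (2.89 to 4.30, 99 of 2795) with vehicle, and 1.40% (0.746 to 2.38) and 3.94% (3.26 to 4.73) with giredestrant. After thinning, the Y541S share was the higher in each of these 4 pairs. All 10 genes belong to the G2 and M phase list. In secretory cells with giredestrant the summed levels of that list lay the other way, with 1 gene higher, 3 lower and a median of -0.25. Why the share and the summed levels differed there was not tested. The intervals cover the sampling of cells within 1 library only, so neither their overlap nor its absence compares the genotypes.

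**Figure D3:**
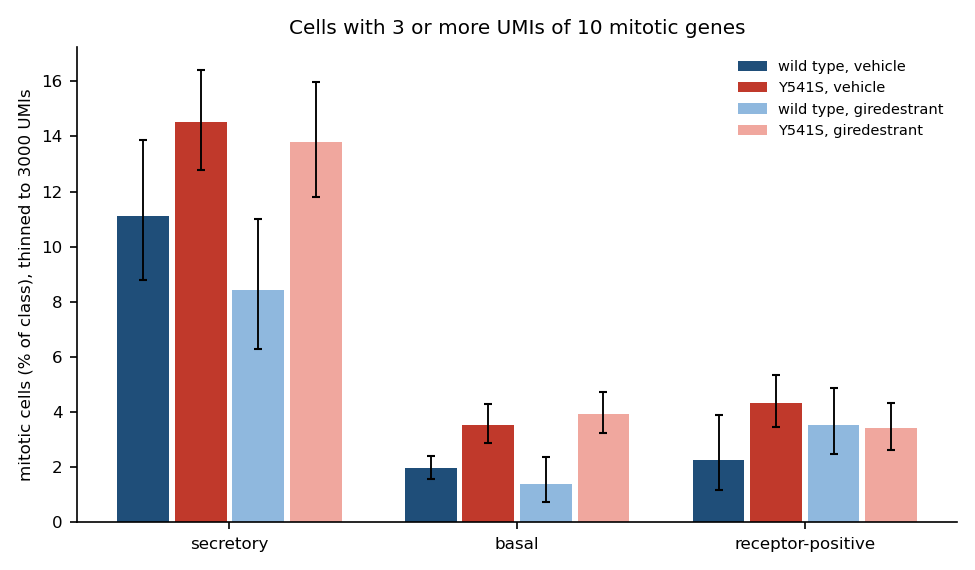
Share of cells (percent) with 3 or more UMIs of 10 mitotic genes after thinning to 3000 UMIs, by class and library, with exact 95% binomial intervals. Secretory cells lie between 8.43% and 14.5% and basal cells between 1.40% and 3.94%. In both, the Y541S library lies above the wild-type library under both treatments after thinning. Without thinning the giredestrant libraries were nearly level (20.9% and 21.6% of secretory, 4.56% and 4.63% of basal cells). Their wild-type cells were the deeper ones.

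Thinning left out 39 wild-type and 27 Y541S secretory cells and 54 and 28 basal cells of the vehicle libraries, and 217 secretory and 597 basal cells of the shallower Y541S giredestrant library. Without it the vehicle shares were 19.8% and 28.4% in secretory and 3.41% and 6.20% in basal cells, and the giredestrant shares were 20.9% and 21.6% in secretory and 4.56% and 4.63% in basal cells. The giredestrant difference was thus seen only after thinning, which left out many cells of the Y541S library. Without thinning, the deeper wild-type giredestrant cells were not brought to the depth of the Y541S cells. Median UMIs were 20788.5 against 6998 in secretory and 18558 against 5662 in basal cells. Thinned to 5000 UMIs, the giredestrant shares were 9.36% and 19.4% in secretory and 1.86% and 5.99% in basal cells. Receptor-positive cells, counted in the same way, were mitotic in 2.26% (1.17 to 3.91) of wild-type and 4.34% (3.48 to 5.34) of Y541S cells with vehicle.

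Basal cells of the Y541S library had more RNA of the agouti gene, of the IGF-binding protein gene Igfbp2 and of the collagen IV genes, and less of Brinp3, Lingo2, Lgr5 and the hexokinase gene Hk2. Of 13583 genes measured in basal cells, 635 (4.67%) were at least 1.5-fold higher and 1089 (8.02%) at least 1.5-fold lower in Y541S, 12.7% in all. At 20 or more CPM, 148 were higher and 263 lower, and in 18 and 32 of them the level was under 25% of that in another class. For 2 of the 635 higher and 3 of the 1089 lower genes a single cell held at least as many UMIs as all others.

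The agouti gene (symbol a, chromosome 2, 154791402 to 155051012) encodes a secreted antagonist of melanocortin receptors. It stood at 1746, 7422, 2346 and 1049 CPM in basal cells, with ratios of 2.07 [2.06 to 2.08] with vehicle and -1.07 with giredestrant. A UMI of it was found in 36.5% of wild-type and 94.8% of Y541S basal cells after thinning, and in 42.7% and 97.4% without. The share was 41.7% and 21.2% in receptor-positive cells after thinning, so the wild-type basal share was no higher than theirs, and 5.66% and 4.17% in non-epithelial cells. The Y541S vehicle library held the most of this RNA among the 4.

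Igfbp2 (chromosome 1, 72824503 to 72852474), a secreted binding protein of IGF1 and IGF2, stood at 97.5, 322, 122 and 174 CPM, with ratios of 1.70 [1.66 to 1.75] and 0.59. After thinning, 10.5% and 38.2% of basal cells held a UMI of Igfbp2, and 20.2% and 62.0% did without. It was at least 1.5-fold higher with giredestrant too.

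For 8 of the 12 genes furthest above the median gene the order of the genotypes with giredestrant was the opposite by at least 1.5-fold. Beside the agouti gene and AL607105.1 they were the adhesion gene Ntm, the sorting receptor gene Sorcs1, the phosphodiesterase gene Pde3a, the serpin gene Serpinb11, the ligand gene Wnt6 and Ramp1, a partner of the receptor of calcitonin gene-related peptide. Sorcs1 stood at 71.8, 267, 217 and 88.2 CPM, Serpinb11 at 11.3, 40.4, 57.5 and 12 CPM, and Ramp1 at 14.8, 43.3, 56.4 and 13.9 CPM. In these, as in the near-identical copies above, the Y541S vehicle and wild-type giredestrant libraries were the high ones. Lrfn5, also among the 12, stood at 8.98, 27.5, 27.5 and 18.4 CPM.

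Brinp3, a member of a family of secreted neural proteins, lies on chromosome 1 from 146494760 to 146902472. It stood at 242, 22.2, 146 and 143 CPM, with a ratio of -3.47 [-3.57 to -3.37] with vehicle and 0.05 with giredestrant, so the Y541S vehicle library alone was low. Lingo2, a leucine-rich repeat membrane protein (chromosome 4, 35706647 to 36951747), stood at 143, 11.5, 12.2 and 186 CPM, with ratios of -3.66 and 4.03. After thinning, 19.6% of wild-type and 2.25% of Y541S basal cells held a UMI of Lingo2, against 0.188% and 0.0517% of receptor-positive cells, and 30.6% and 4.92% of basal cells did without thinning.

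Brinp1 stood at 167, 41.1, 57.9 and 2.01 CPM, the neuropeptide Y gene Npy at 27.5, 4.26, 4.37 and 3.75 CPM, and the scaffold gene Frmpd4 at 127, 23.2, 19.7 and 5.24 CPM. In all 3 the wild-type vehicle library was the highest. Ptx3, a secreted pentraxin of innate defence, stood at 205, 55.6, 42.8 and 76.4 CPM, and Slc2a13, which carries myo-inositol into cells, at 267, 72.5, 105 and 62.8 CPM. The others of the 12 were Gfra2 (the neurturin receptor), Tspan8, Thsd7a, Dpyd (which breaks down pyrimidines) and Ntn4 (a netrin of basement membranes), with ratios from -2.73 to -1.88. Of the 12, 7 were also at least 1.5-fold lower with giredestrant, and Lingo2 and Ptx3 were higher.

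**Figure D4:**
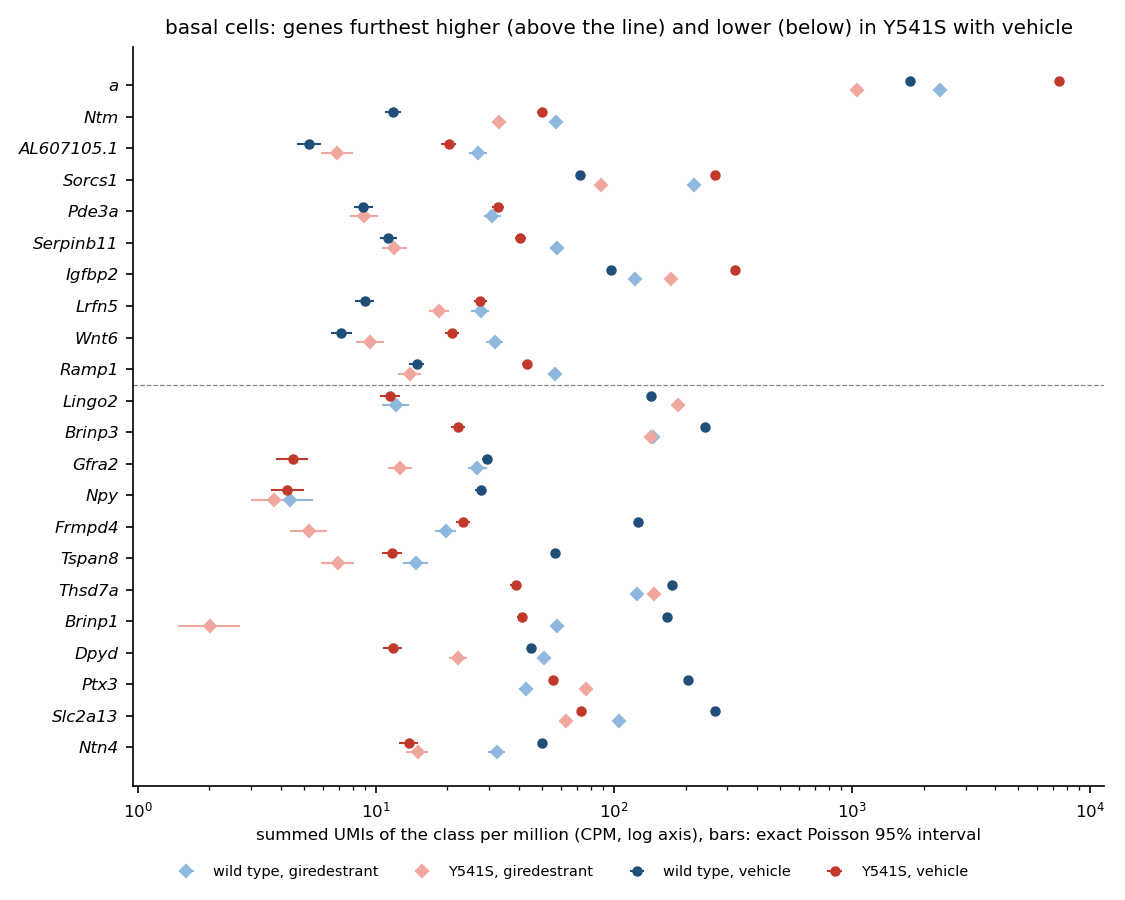
Level (CPM, log axis) of 10 of the 12 genes furthest above and the 12 furthest below the median gene in basal cells, in each of the 4 libraries, with lines for exact 95% Poisson intervals. The agouti gene (a) was highest and Brinp3 lowest in the Y541S vehicle library, and Sorcs1 was high in the Y541S vehicle and wild-type giredestrant libraries.

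Among basal genes that were more abundant in another class, the furthest above were Igfbp4 (17.3 and 45 CPM with vehicle), Rtp4 (10.5 and 23.8), Dcn (116 and 248) and Hist1h2bc (31.2 and 66.0). The furthest below were Col6a1 (28.3 and 6.25), Pde7b (21.9 and 5.78), Fli1 (33.9 and 10.6) and H2-Q7 (33.8 and 11.2).

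With vehicle, genes of the basement membrane, which basal cells lay down, were called higher only in basal cells and lower only in secretory cells. Of all basal genes measured with vehicle, 4.67% were higher and 8.02% lower, against 3.49% and 6.64% of secretory genes. Of 17 basement membrane and integrin genes measured, 4 were higher in Y541S basal cells and none was lower, with a median of 0.14, and with giredestrant 8 of 17 were higher and none lower, with a median of 0.54, where 13.0% of all basal genes measured were higher and 12.8% lower. Col4a1 and Col4a2, the chains of collagen IV, stood at 259, 574, 389 and 604 CPM and at 199, 325, 258 and 328 CPM. The laminin chain gene Lamc1 stood at 115, 182, 123 and 199 CPM, and Lama1 at 29.1, 49.7, 74.5 and 64.1 CPM. Col4a1, Col4a2 and Lamc1 were higher in each Y541S library than in the wild-type library of the same treatment. The fibroblast markers summed to 127 and 256 CPM in the same vehicle sums, and their part in the result was not tested. In secretory cells with vehicle, none of 14 members was higher and 3 were lower (Lama3, Col4a1 and Col4a2), with a median of -0.18. Only 4 of the 14 reached 25% of the level in the class with the most. With giredestrant 5 of 14 were higher in secretory cells and none lower (median 0.16). Over all secretory genes measured the shares were 13.1% and 15.7%.

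The identity genes of basal cells moved little as a list and in both directions singly. Of 15 contractile genes outside the rule, Actg2 (smooth muscle gamma-actin, 227, 527, 376 and 243 CPM) and Myocd were higher and the median was -0.06. Krt15, a keratin of basal and progenitor cells, stood at 298, 581, 966 and 345 CPM, and its order was the opposite with giredestrant. Of 18 lineage transcription factors, Tbx2 and Snai2 were higher and Id1, Id3, Tbx3 and Sox10 lower, with a median of -0.21. Among all basal genes measured with vehicle, 4.67% were higher and 8.02% lower. Snai2 (SLUG) stood at 54.1, 84.5, 48.1 and 134 CPM and was higher in Y541S under both treatments. Id3, an inhibitor of basic helix-loop-helix factors, stood at 414, 184, 166 and 208 CPM, with the wild-type vehicle library above the other 3.

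The Wnt targets were split. Of 14 measured in basal cells, Tnfrsf19, Axin2 and Nkd1 were higher and Lef1, Lgr5 and Procr lower, with a median of 0.08. Among all basal genes measured with vehicle, 4.67% were higher and 8.02% lower. Axin2, a feedback inhibitor of Wnt signalling, stood at 3.16, 7.09, 4.00 and 10.0 CPM. Lgr5, the R-spondin receptor, stood at 218, 104, 120 and 155 CPM, with a ratio of -1.09 [-1.14 to -1.03]. Of 10 Notch pathway genes only the target Hes1 was called, at 88.9, 37.6, 56.4 and 41.1 CPM.

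Part of the hypoxia and glycolysis list was lower with vehicle. Of 13 hypoxia and glycolysis genes, 5 were lower (Hk2, Eno1, Ndrg1, Slc2a1 and Vegfa), none was higher, 5 lay above the median gene and the list median was -0.34. With giredestrant 6 were higher, 1 was lower and the median was 0.41, where 13.0% of all basal genes measured were higher and 12.8% lower. With vehicle these shares were 4.67% and 8.02%. Hk2 (hexokinase, the first step of glycolysis) stood at 66.4, 30.9, 31.1 and 59.5 CPM, and Vegfa, the endothelial growth factor, at 288, 189, 96.5 and 324 CPM. For both genes the wild-type vehicle and Y541S giredestrant libraries were the high ones.

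Of 10 innate defence and acute phase genes measured in basal cells, 5 were lower (Ltf, Wfdc3, Slpi, C3 and Cp) and Wfdc12 was higher, with a median of -0.67. Among all basal genes measured with vehicle, 4.67% were higher and 8.02% lower. Slpi, an inhibitor of leukocyte proteases, stood at 3010, 1457, 700.2 and 132 CPM. Of 6 MHC class II genes 5 were lower, with a median of -1.29, at levels under 25% of those in another class for all but 1 of the 6, and the macrophage and dendritic markers summed to 84.9 CPM in wild-type and 56.7 CPM in Y541S basal cells. Of 17 immediate early and heat shock genes, the chaperone genes Hspa1a (59.1, 124, 64.1 and 136 CPM), Hspa1b and Dnajb1 were higher and none was lower, with a median of -0.05. With giredestrant 2 were higher and 7 lower (median -0.41), where 13.0% of all basal genes measured were higher and 12.8% lower.

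Ligands and their regulators were called in both directions. The EGF family list had 3 of 18 genes higher and Hbegf lower in basal cells. Among all basal genes measured with vehicle, 4.67% were higher and 8.02% lower. Nrg1, the neuregulin that binds ERBB3 and ERBB4, stood at 834, 1420, 900 and 1169 CPM, and Hbegf at 143, 69.9, 45.7 and 150 CPM. In the list of IGF binding and growth factors 3 of 13 were higher (Igfbp2, Igfbp4 and Cyr61) and 4 lower, among them Tgfb1 at 76.1, 34.0, 48.2 and 48.2 CPM. Nrg1 was called in the opposite direction in secretory cells, at 106 and 48.9 CPM with vehicle, where its level was under 25% of that in another class.

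Some hormone response genes were called in basal cells, where 4.67% of all genes measured were higher and 8.02% lower with vehicle. Of 19 estrogen response genes 3 (15.8%) were higher (Igfbp4, Wisp2 and Stc2) and 2 (10.5%) lower (Celsr2 and Cxcl12), with a median of -0.04. Of 11 progesterone and glucocorticoid response genes, Zbtb16, Calca and Dusp1 were lower, none was higher and 9 lay below the median gene, with a list median of -0.17. With giredestrant 5 of the 11 were higher and 2 lower (median 0.35), where 13.0% of all basal genes measured were higher and 12.8% lower. No member of the prolactin and STAT5 (11 measured), unfolded protein response (15) or p53 target (13) lists passed 1.5-fold. Esr1 itself, which the rule kept low, summed to 15.4 and 11.0 CPM in secretory and 21.3 and 12.2 CPM in basal cells of the vehicle libraries.

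**Figure D5:**
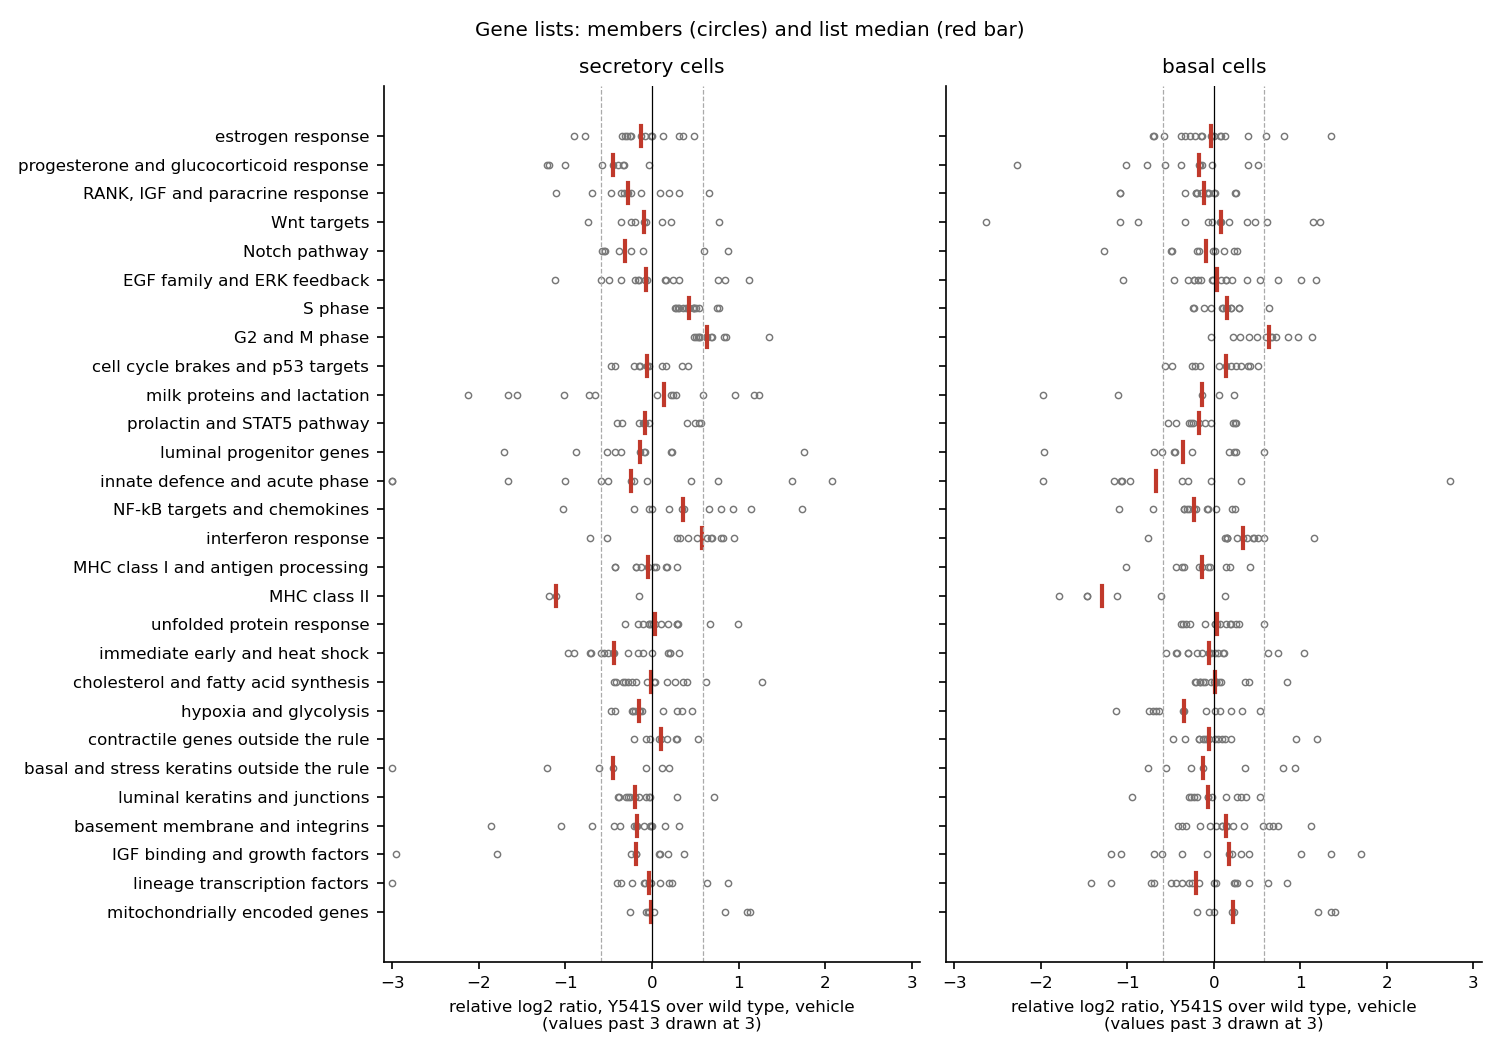
Relative log2 ratio (Y541S over wild type, vehicle) of each measured member of the gene lists in secretory and basal cells, with each circle standing for 1 gene, a red bar for the list median, dashed lines for 1.5-fold and values past 3 drawn at 3. The G2 and M phase members lie above the median gene in all 12 secretory values and in 11 of 12 basal values, and all 15 S phase members do so in secretory cells.

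The genes around Esr1 (chromosome 10, 4611593 to 5005614) were listed by position. Of 40 genes measured within 10 Mb of it in secretory cells, Akap12, Fbxo5 and Samd5 were higher (7.5%) and Syne1 and Plekhg1 lower (5.0%), with a median of -0.02. Over all secretory genes measured, 3.49% were higher and 6.64% lower. Of 50 genes around Esr1 measured in basal cells, 1 was higher (2.0%) and 4 were lower (8.0%), with a median of -0.13. Over all basal genes measured, 4.67% were higher and 8.02% lower. Among the genes around Esr1, the lowest and highest relative log2 ratios were -1.13 and 0.91 in secretory cells and -0.99 and 0.71 in basal cells.

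The giredestrant libraries hold the same genotypes and share no library with the vehicle pair. They held 588 wild-type and 1305 Y541S secretory cells, with median UMIs of 20788 and 6998, and 942 and 3437 basal cells, with medians of 18558 and 5662, so the Y541S library was the shallower one. Of the 400 secretory genes higher with vehicle, 345 were measured there, 60 (17.4%) were higher in Y541S and 138 (40.0%) lower, and over all genes the shares were 13.1% and 15.7%. Of the 760 lower genes, 646 were measured, 168 (26.0%) were lower and 156 (24.1%) higher. Over all genes 15.7% were lower and 13.1% higher, so both shares stood above those of genes at large.

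Of the 635 basal genes higher with vehicle, 486 were measured with giredestrant, 100 (20.6%) were higher and 161 (33.1%) lower, against 13.0% and 12.8% over all genes. Of the 1089 lower genes, 736 were measured, 139 (18.9%) were lower and 226 (30.7%) higher. The opposite direction was the more frequent one for secretory genes that were higher and for basal genes of both directions. Genotype, treatment and library cannot be told apart with 1 library for each combination.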

How the data were processed

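Single EpCAM-positive mammary cells of 4 libraries were analysed from the deposited matrices, which hold raw UMI counts per gene and barcode, made by the authors with Cell Ranger 6.0.1, per the file headers. The barcodes and the gene identifiers and symbols came from other deposited text files. The submitters' processing notes name GRCm38. The annotation and the handling of intronic reads are not given in the sources used here. Of 52636 genes, 52403 were found in the reference annotation used for coordinates (GENCODE release M21, GRCm38).

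Barcodes were filtered and classed by the rule given in the report, which left 25950 of 30062. Its 14 genes stayed out of all results. Receptor-positive cells held at least 20 UMIs of Esr1, Prlr, Areg and Foxa1 per 10000. Doublets were not removed in the values reported, because Scrublet's automatic threshold marked only 0.0282% of the cells of the wild-type vehicle library, and the highest scores were removed as an alternative. Counts were summed per class and library. Ratios carry exact conditional binomial intervals, levels exact Poisson and shares Clopper-Pearson intervals. The calculation was tested on simulated data. Python 3.11.15, NumPy 2.4.6, SciPy 1.17.1, pandas 2.3.3, Scanpy 1.11.5 and edgeR 4.0.16 (TMM factors only) were used.

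Genes were named by a rule: in each class the 12 furthest above and the 12 furthest below the median gene, among those with 20 or more CPM in the higher library and at least 25% of the level in the class with the most. Mitochondrial, ribosomal protein, Gm-number and Rik genes were left out of it. The 4 furthest each way that failed only the 25% condition and list members at least 1.5-fold away or furthest out were added. The members, the gene lists and this rule were chosen with earlier results of these data known. Alternatives covered scaling, fold, low counts, doublets, the class rule, the cell filter, mitotic cells, pericyte markers, cell weight and depth. Leaving out each gene's highest cell was added after the data were seen. Promoters came from a RefSeq table of GRCm38.p6. Some genes that the rule names are not reported here.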

Additional observations from a re-analysis of the deposited data

Results flagged for a closer look

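The genotypes were compared separately under vehicle and under giredestrant, each with 1 library per genotype. Among the genes furthest from the median gene with vehicle, 17 values lay at least 1.5-fold from it in the opposite direction with giredestrant. In every case the difference between the treatments was not tested, since no group has a replicate.

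In secretory cells, 3 genes that were higher in Y541S with vehicle were lower with giredestrant. Their relative log2 ratios with giredestrant were -2.02 for AL607105.1, -0.74 for Chrm3 and -1.03 for Rnaset2b. Another 4 were lower in Y541S with vehicle and higher with giredestrant, with ratios of 4.85 for Msln, 3.20 for Pdk4, 2.68 for Alox12e and 1.12 for Flnc.

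In basal cells, 8 genes were higher in Y541S with vehicle and lower with giredestrant. The ratios with giredestrant were -1.07 for the agouti gene (a), -0.71 for Ntm, -1.88 for AL607105.1, -1.21 for Sorcs1, -1.70 for Pde3a, -2.18 for Serpinb11, -1.65 for Wnt6 and -1.93 for Ramp1. Lingo2 and Ptx3 were lower with vehicle and higher with giredestrant, with ratios of 4.03 and 0.92. Dixon's test for single outlying samples could not be used, since no group has 4 samples.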

How the results depend on the processing

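With at least 2-fold in place of 1.5-fold, 96 secretory genes were higher and 216 lower, and 204 basal genes were higher and 397 lower. With a minimum of 20 UMIs the counts were 973, 1714, 1305 and 2119 in the same order, and with no minimum beyond 1 UMI in each library 2037, 3967, 2574 and 3663. With all cells weighing the same, 766 secretory genes were higher and 1192 lower. Thinning to 3000 UMIs left 493 secretory and 698 basal genes lower. A higher fold or another minimum alters by construction which genes can be called, and for the cell weight and the thinning the cause was not tested. Removing the highest doublet scores, a stricter class rule, a stricter cell filter, leaving out mitotic cells, leaving out cells with pericyte markers (basal only), and scaling by TMM or by totals kept all 4 counts within 1.5 times. So did leaving out each gene's highest cell, chosen after seeing the data (407, 695, 630 and 1103). The difference in mitotic share, 3.40 percentage points in secretory and 1.59 in basal cells, ranged from 2.28 to 4.56 and from 1.52 to 2.33 under the alternatives that thin the cells. Without thinning, a setting chosen after seeing the data, it was 8.60 and 2.79 percentage points, where the deeper Y541S cells were not brought to the depth of the wild-type cells. Of 287 values for single secretory genes, 53 moved beyond their counting interval and 1 reversed: Saa1, at 1.64 under the stricter class rule in place of -6.41. Without its highest cell Saa1 stood at -0.79. Ly6a moved from -1.97 to -0.94 without its highest cell, and Plac8 to -0.59 with all cells weighing the same. Of 320 values for single basal genes 58 moved and none reversed. No paired analysis was possible because each group has 1 library. Variation between animals is not measured by any of these settings.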
